A study of Homo sapiens with 2 samples.

Results

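Cadherins and protocadherins were examined in SBC-3 cells, an established human small cell lung cancer (SCLC) line that the study's text says came from a bone metastasis. Genes were taken by symbol: every gene whose symbol began with PCDH, or with CDH followed by a number only, and which had a probe on the array. This gave 86 of the 19061 genes named on the array, measured by 106 of 42402 probes and 161 spots. The genes comprised 15 of the PCDHA cluster, 18 of the PCDHB cluster, 17 of the PCDHG cluster, 13 other protocadherins and 23 cadherins. By the same rule 10 further RefSeq genes and pseudogenes had no named probe here: PCDH8P1, PCDHA14, PCDHB3, PCDHGA1, PCDHGA4, PCDHGA6, PCDHGA10, PCDHGA11, PCDHGB5 and PCDHGB9P. PCDHB17P, PCDHB18P, PCDHB19P and PCDHGB8P, which were measured, are pseudogenes.

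Cells transfected with the small interfering RNA #1 siHOTAIR, directed at the long noncoding RNA HOTAIR, were compared with cells transfected with siGFP, an siRNA against a jellyfish fluorescent protein that served as the control. Each condition was hybridised once, to a 1-colour Agilent array, so that no replicate, no test and no p-value was available and the siRNA, the culture and the array cannot be told apart. The labels gave no time after transfection, and the other siRNAs against HOTAIR used by the study were not analysed here. Signals are the intensities processed by the scanner software. A probe is called detected on an array where the software marked 50% or more of its spots as well above background, and was compared where this held for either array. Ratios are log2 of #1 siHOTAIR over siGFP after each array was scaled to its 75th percentile. The ± after a ratio is the measurement SD expected from repeated spots of a similar signal, which covers error within an array only. HOTAIR itself, on 1 spot, had a signal of 108 with #1 siHOTAIR and 244 with siGFP, a log2 ratio of -1.22 ± 0.18. The targeted RNA was thus lower in the array labelled #1 siHOTAIR, in the direction of its label. In RNA from whole cultures, fewer cells expressing a gene and less of its RNA per cell cannot be told apart.

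Classical cadherins are calcium-dependent adhesion receptors whose cytoplasmic tails bind catenins, and through them the actin cytoskeleton. E-cadherin (CDH1) joins epithelial cells and N-cadherin (CDH2) neural and mesenchymal cells. Clustered protocadherins lie in tandem on chromosome 5 as the PCDHA, PCDHB and PCDHG arrays. In the PCDHA and PCDHG clusters each variable exon has its own promoter and is spliced to constant exons that the cluster shares, whereas PCDHB genes consist of a single large exon. Single neurons choose a few of these promoters, and the combination of isoforms lets a neurite recognise its own cell. Most of these promoters carry a conserved element with the core CGCT, and CTCF, cohesin and DNA methylation take part in the choice.

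The promoters of the clustered genes detected here are shown first, since each of these genes is transcribed from its own start. RefSeq promoters (GRCh38.p14) were matched by symbol for 8 of the 10 detected clustered genes, PCDHB11 and PCDHGA12 being the others. Each window below covers 80 bases, from position -110 to -31 relative to the start on the plus strand, and capitals mark the word of 8 bases with the core CGCT that was most frequent in that cluster. PCDHA2, which was detected on neither array, is shown beside the detected PCDHA genes. The windows are chr5:140786030-140786109 for PCDHA1, chr5:140794742-140794821 for PCDHA2, chr5:140821503-140821582 for PCDHA5, chr5:140834159-140834238 for PCDHA7 and chr5:140855787-140855866 for PCDHA10. They are chr5:141213809-141213888 for PCDHB13, chr5:141338650-141338729 for PCDHGA2, chr5:141382632-141382711 for PCDHGA7 and chr5:141392523-141392602 for PCDHGA8.
PCDHA1: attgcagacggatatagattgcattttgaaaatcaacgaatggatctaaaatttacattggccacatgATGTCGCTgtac
PCDHA2: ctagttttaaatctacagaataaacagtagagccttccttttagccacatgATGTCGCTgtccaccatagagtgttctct
PCDHA5: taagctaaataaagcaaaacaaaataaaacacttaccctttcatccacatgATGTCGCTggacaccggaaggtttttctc
PCDHA7: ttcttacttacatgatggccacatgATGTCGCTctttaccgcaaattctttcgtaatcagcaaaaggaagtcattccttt
PCDHA10: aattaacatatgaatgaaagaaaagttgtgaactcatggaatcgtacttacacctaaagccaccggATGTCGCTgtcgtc
PCDHB13: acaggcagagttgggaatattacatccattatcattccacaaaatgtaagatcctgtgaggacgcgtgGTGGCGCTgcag
PCDHGA2: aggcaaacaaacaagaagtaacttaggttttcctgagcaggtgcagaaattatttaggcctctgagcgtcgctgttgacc
PCDHGA7: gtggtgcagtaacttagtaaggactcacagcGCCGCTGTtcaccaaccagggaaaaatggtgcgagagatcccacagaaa
PCDHGA8: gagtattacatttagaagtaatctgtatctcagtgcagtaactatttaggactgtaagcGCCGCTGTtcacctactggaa

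Each word was picked as the most frequent of its cluster, so that its high share there was favoured by the choice. The PCDHA word, ATGTCGCT, stood in 9 of 13 PCDHA promoters (69.2%). On either strand it stood in 0.234% of 35116 promoters of all genes, those of the cluster included. The PCDHB word, GTGGCGCT, stood in 13 of 14 PCDHB promoters (92.9%) and in 1.15% of all promoters. The PCDHG word, GCCGCTGT, stood in 11 of 20 PCDHG promoters (55%) and in 1.63% of all promoters. The core CGCT lies inside each of these words and on its own occurred in 70.0% of all promoters. The first base of the word lay at a median position of -52 for PCDHA (range -85 to -42), -65 for PCDHB (-83 to -1) and -67 for PCDHG (-97 to -42). The PCDHG word was not found in the promoter of PCDHGA2, whose window nevertheless held the core.

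**Figure D1:**
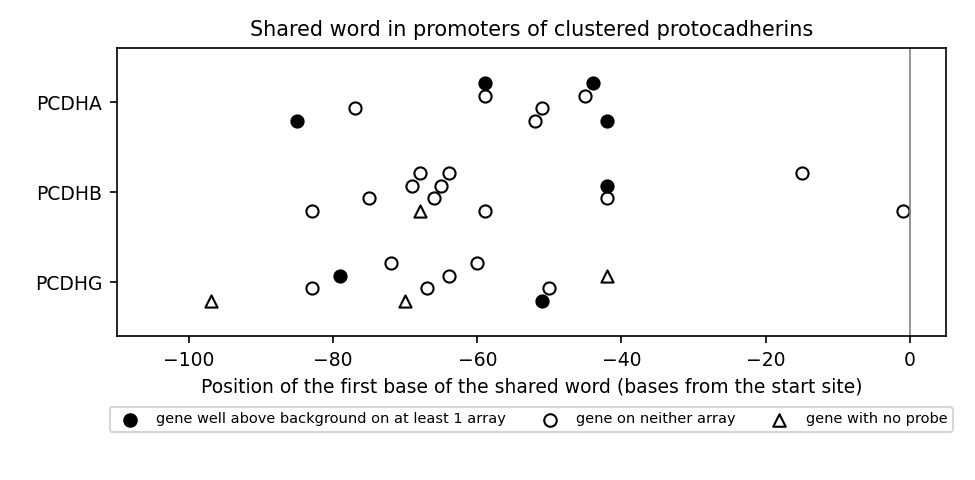
Position of the shared word of 8 bases in RefSeq promoters of clustered protocadherins that hold it; the x axis gives bases from the start site and rows are clusters, with points spread vertically for legibility only. Filled circles are genes detected on either array, open circles genes detected on neither and triangles genes with no probe, and for PCDHA the filled circles lie between -85 and -42 and the open circles between -77 and -45.

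The word was shared by detected and undetected genes alike. In the PCDHA cluster it stood in all 4 detected genes with a promoter entry and in 5 of 9 undetected genes. In the PCDHB cluster it stood in the 1 detected gene with an entry, PCDHB13, and in 11 of 12 undetected genes. In the PCDHG cluster it stood in 2 of 3 detected genes and in 6 of 11 undetected genes. These counts are descriptions of sequence, and binding or methylation at these promoters was not measured.

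Most cadherin and protocadherin genes were not detected. Of the 106 probes, 27 (25.5%) were detected on either array, against 56.9% of all probes. These 27 probes belonged to 23 genes. Of them 20 were detected on both arrays, 4 only with #1 siHOTAIR and 3 only with siGFP, and the other 79 probes were detected on neither. By group, 4 of 16 PCDHA probes, 2 of 19 PCDHB probes, 5 of 23 PCDHG probes, 7 of 22 probes of other protocadherins and 9 of 26 cadherin probes were compared. Of all 24117 probes compared, 2.83% were detected only with #1 siHOTAIR and 8.32% only with siGFP. The 4 probes seen only with #1 siHOTAIR were of PCDHA and PCDHG genes, and the 3 seen only with siGFP were of PCDH11Y and CDH7, a split that was not tested.

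**Figure D2:**
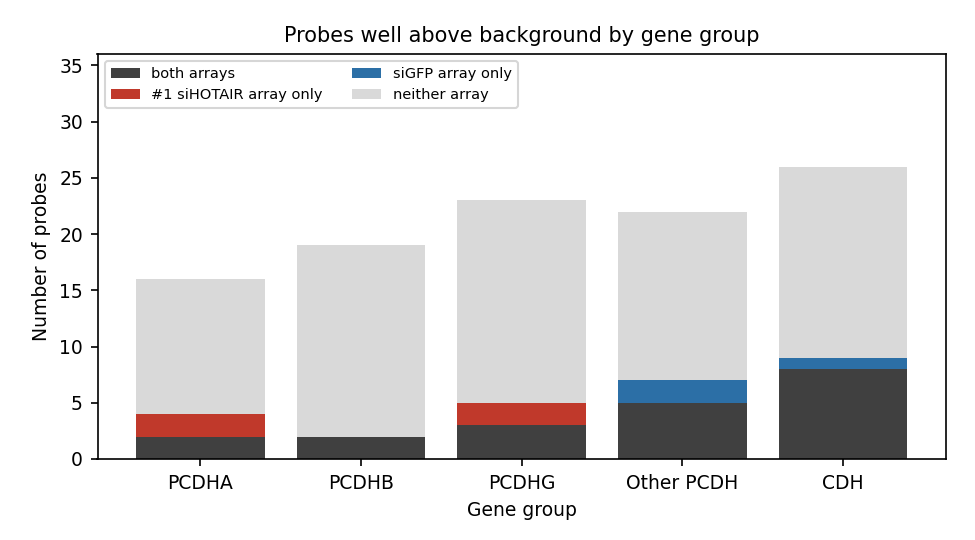
Number of probes (y axis) in each gene group (x axis), divided by the arrays on which they were well above background. The PCDHB cluster had the lowest share of detected probes, 2 of 19, and the cadherins the highest, 9 of 26.

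The undetected probes were dim on both arrays. For the 79 undetected probes the median signal was 9.12 with #1 siHOTAIR and 7.05 with siGFP, ranging from 7.54 to 39.8 and from 5.72 to 30.4. Undetected probes of all genes had medians of 9.34 and 7.32, so the array labelled #1 siHOTAIR had the higher median dim level, and no ratio is given for them. Undetected PCDHA genes were PCDHA2, PCDHA3, PCDHA4, PCDHA6, PCDHA8, PCDHA9, PCDHA11, PCDHA12, PCDHA13, PCDHAC1 and PCDHAC2. Undetected PCDHB genes were PCDHB1, PCDHB2, PCDHB4, PCDHB5, PCDHB6, PCDHB7, PCDHB8, PCDHB9, PCDHB10, PCDHB12, PCDHB14, PCDHB15, PCDHB16 and the 3 pseudogenes. Undetected PCDHG genes were PCDHGA3, PCDHGA5, PCDHGA9, PCDHGB1, PCDHGB2, PCDHGB3, PCDHGB4, PCDHGB6, PCDHGB7, PCDHGB8P, PCDHGC3, PCDHGC4 and PCDHGC5. Other undetected genes were PCDH8, PCDH9, PCDH10, PCDH11X, PCDH12, PCDH15, PCDH17 and PCDH20 and, among cadherins, CDH1, CDH4, CDH6, CDH8, CDH9, CDH10, CDH12, CDH13, CDH16, CDH17, CDH18, CDH19, CDH20, CDH23 and CDH26.

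With #1 siHOTAIR 3 of the 27 probes compared were at least 2-fold higher, those of PCDHA1, PCDHA10 and PCDHGA12, and 1 was at least 2-fold lower, a probe of PCDH11Y. Over all probes compared, 3.3% of 24117 were at least 2-fold higher and 4.1% at least 2-fold lower. Each of these 4 was detected on 1 array only, a class in which 17.6% of probes of all genes were at least 2-fold higher and 24.5% at least 2-fold lower. Among the 20 probes detected on both arrays, 0 were at least 2-fold higher and 0 at least 2-fold lower, against 1.5% and 1.54% of 21428 probes of all genes. With dim signals set at their bound (the lowest signal among spots well above background on that array, or the probe's own level where higher), 2 probes were at least 2-fold higher and 0 lower, against 2.37% and 2.06% of all probes compared. The median log2 ratio of the 27 probes was 0.15, beside 0.01 for all probes compared. For the 20 probes on both arrays it was 0.13, beside 0.03, and 14 of the 20 were above 0, as were 54.2% of all probes detected on both arrays.

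The PCDHA cluster encodes neuronal recognition receptors. The single spot of PCDHA1 read 129 with #1 siHOTAIR and 6.51 with siGFP, and with the dim side at its bound it was 4.36-fold higher. Undetected probes of all genes reached 39.5 with siGFP, above the bound of 28.6, so that folds at the bound are not lower limits. The single spot of PCDHA10 read 56.4 and 6.22, or 1.91-fold higher at the bound. Its place among the 2-fold calls thus rested on the dim value itself. Both genes thus had a signal on the #1 siHOTAIR array and none distinguishable from background on the siGFP array. With normexp the log2 ratios were 1.495 for PCDHA1 and 1.19 for PCDHA10, and without background correction 1.29 and 1.00, the last just under 2-fold. PCDHA5 read 90.7 and 61.8, a log2 ratio of 0.51 ± 0.30, or 0.21 with normexp and 0.20 without background correction. PCDHA7 read 292 and 366, a log2 ratio of -0.37 ± 0.13, and was the clustered gene on both arrays that was lower with #1 siHOTAIR. The 4 detected PCDHA genes therefore did not share a direction. On both arrays the group had only 2 probes, of PCDHA5 and PCDHA7, and their opposite log2 ratios had a median of 0.07, which describes neither.

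The 2 PCDHB probes compared were close to the 0 line, and the other 17 probes of this cluster were detected on neither array. PCDHB11 read 71.3 with #1 siHOTAIR and 59.2 with siGFP, a log2 ratio of 0.22 ± 0.36. PCDHB13 read 504 and 455, a log2 ratio of 0.10 ± 0.13. Both ratios were within 1 measurement SD of 0. PCDHB15 and PCDHB1 carried 10 spots each and so were the clustered genes measured most often. For PCDHB15 all 10 spots lay between 8.06 and 9.89 with #1 siHOTAIR and between 6.16 and 7.58 with siGFP. For PCDHB1 the 9 spots kept on each array lay between 7.46 and 10.2 and between 5.69 and 7.73. Both genes were at the dim level of their array.

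Of the 5 PCDHG probes compared, all had ratios above 0, but 2 were detected only with #1 siHOTAIR, which favoured that sign. The other 3, on both arrays, stand beside 54.2% above 0 among all probes on both arrays. PCDHGA12, on 1 spot, read 91.0 with #1 siHOTAIR and 34.8 with siGFP, although its siGFP signal was not well above background. This was 2.53-fold higher, a log2 ratio of 1.34 ± 0.33, and the bound left it unchanged. The log2 ratio was also 1.34 with the background-subtracted value table. It was 0.57 with normexp and 0.53 without background correction, both under 2-fold, so that the call depends on how background is treated. PCDHGA8 read 606 and 379, a log2 ratio of 0.63 ± 0.13, or 1.55-fold, the widest among the 20 probes on both arrays. PCDHGA2 read 78.4 and 55.2, a log2 ratio of 0.46 ± 0.36. The 3 PCDHG probes on both arrays had a median log2 ratio of 0.46. PCDHGA7 was measured by a pair of probes: the first read 279 and 243, a log2 ratio of 0.15 ± 0.13, and the second read 40.8 and 23.5, well above background only with #1 siHOTAIR. A second probe of PCDHGA8 read 9.14 and 7.01 and was on neither array, so that probes of this gene disagreed on whether it was detected. Whether a probe lies in a variable exon or in exons the cluster shares is not given in the sources used here, and genes of these clusters are close in sequence, so that signals of clustered genes could include RNA of a neighbour.

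**Figure D3:**
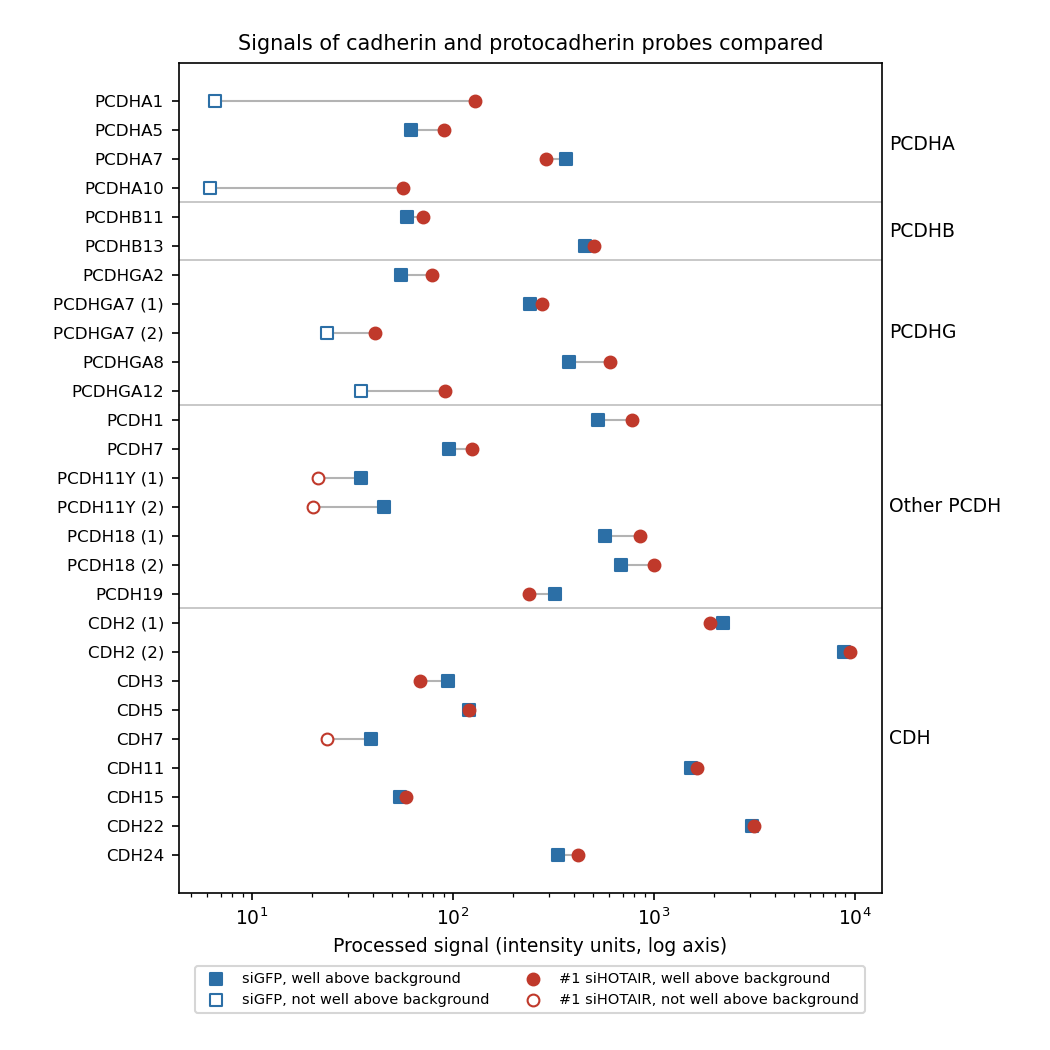
Processed signal (x axis, log scale) of the 27 cadherin and protocadherin probes compared, 1 row per probe, with numbers in brackets for genes with several probes. Squares are siGFP and circles #1 siHOTAIR, filled where well above background; PCDHA1 and PCDHA10 have the longest lines, from under 7 with siGFP to 129 and 56.4 with #1 siHOTAIR.

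The 3 genes called higher were each read from a single spot on each array, and the software's own error gave wider SDs than the repeated spots did. From that error the SD of the log2 ratio was 1.46 for PCDHA1, 1.47 for PCDHA10 and 0.39 for PCDHGA12. It was also wider than the ± for most probes on both arrays, as for PCDHGA8 (0.21 against 0.13). The exceptions were PCDHA5, PCDHB11, PCDHGA2 and CDH3. Probes printed in duplicate elsewhere on the arrays show how often such a signal repeated. Among 7321 probes with a pair of spots, 24 spots read between 100 and 400 with #1 siHOTAIR and under 15 with siGFP, as PCDHA1 did, and the partner spot was well above background with #1 siHOTAIR for 2 of the 24. In the range of PCDHA10, from 40 to 100, this was so for 10 of 53 spots. With the arrays exchanged, the partner repeated for 0 of 4 spots and for 15 of 40 spots. Outlier spots were kept in these counts, whereas the spots of PCDHA1 and PCDHA10 were not marked as outliers. Each spot of a pair was taken in turn, so that both spots of a probe could enter the same count.

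The position on the slide moved with these signals too. The array has 384 rows, and its upper part, up to row 144, contained 37.5% of all spots but 78.1% of the 343 that read 4-fold or more above siGFP. The spots of PCDHA1 (row 72), PCDHA10 (row 83) and PCDHGA12 (row 9) all lay there, as did the second probe of PCDHGA7 (row 99), whereas 32.3% of the spots of cadherins and protocadherins did. These rows were set apart after the values had been seen, and their part in the result was not tested. PCDHGA8 (row 349), with a signal on both arrays, lay outside them.

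**Figure D4:**
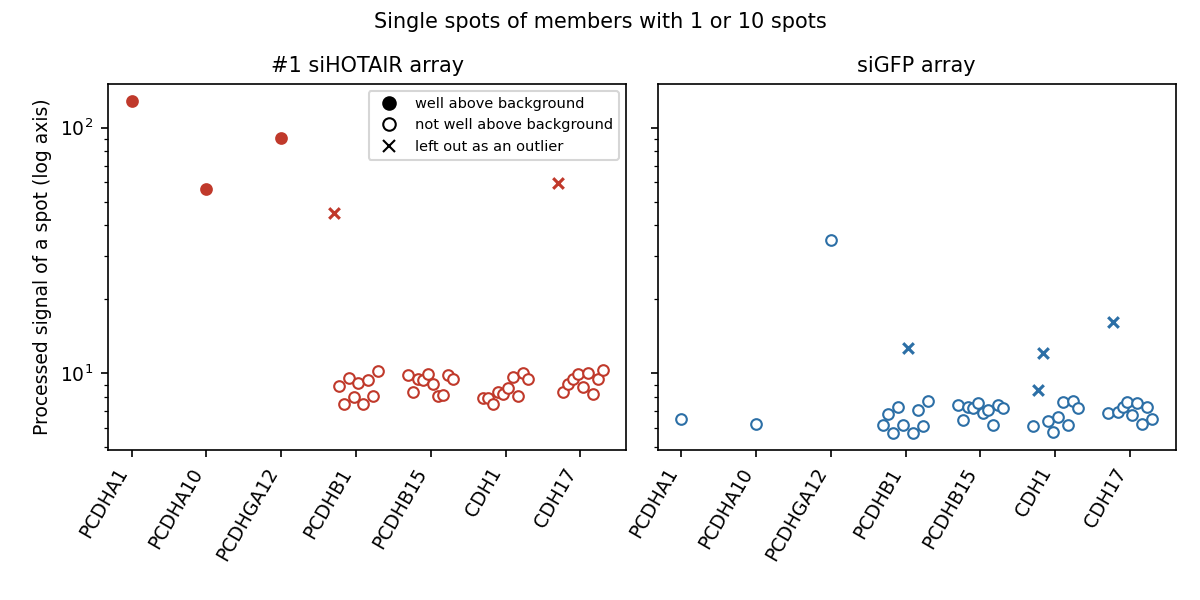
Processed signal of single spots (y axis, log scale) on the #1 siHOTAIR array (left) and the siGFP array (right) for the 3 genes called higher, which have 1 spot each, and the 4 members with 10 spots each. Filled circles are well above background, open circles are not and crosses were left out as outliers; single spots of PCDHB1 and CDH17 stand at 44.7 and 59.3 on the #1 siHOTAIR array while the spots kept of the genes with 10 spots lie near 10 or below.

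Protocadherins outside the clusters act in cell sorting and neural wiring. The 5 probes of this group on both arrays were of PCDH1, PCDH7, PCDH19 and, by a pair of probes, PCDH18. Their median log2 ratio was 0.50, the value of a PCDH18 probe, beside 0.03 for all probes on both arrays. PCDH18, a delta-2 protocadherin, was read by a pair of separate probes in distant rows (66 and 257): 850 with #1 siHOTAIR and 575 with siGFP for the first, 1001 and 687 for the second. Their log2 ratios were 0.52 ± 0.11 and 0.50 ± 0.09, so the probes of this gene gave like values, 1.43-fold and 1.41-fold higher. PCDH1, an adhesion protein of airway epithelium and of the delta-1 class, read 783 and 531, a log2 ratio of 0.52 ± 0.11, while another of its probes read 9.22 and 7.06. PCDH7, also delta-1, read 124 and 95.5, a log2 ratio of 0.33 ± 0.22.

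PCDH19, a delta-2 protocadherin mutated in an epilepsy of girls, ran the other way. Its spots read 247 and 233 with #1 siHOTAIR and 329 and 317 with siGFP, a log2 ratio of -0.48 ± 0.09. The spots of the arrays, which are technical repeats, did not overlap, but neither did those of CDH11, whose ratio was within 1 measurement SD of 0. A further probe of PCDH19 was on neither array. PCDH11Y was called from dim probes. One with a single spot read 20.2 and 45.6, or 1.26-fold lower with the #1 siHOTAIR signal at its bound. Another read 21.4 and 34.9, for which no fold can be given. The remaining probe of PCDH11Y read 10.6 and 16.0 and was on neither array, and its spots differed in direction. PCDH11X, its near-identical copy on the X chromosome, read 9.55 and 21.0 and was on neither array. RNA of these 2 genes cannot be separated with certainty by these probes.

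**Figure D5:**
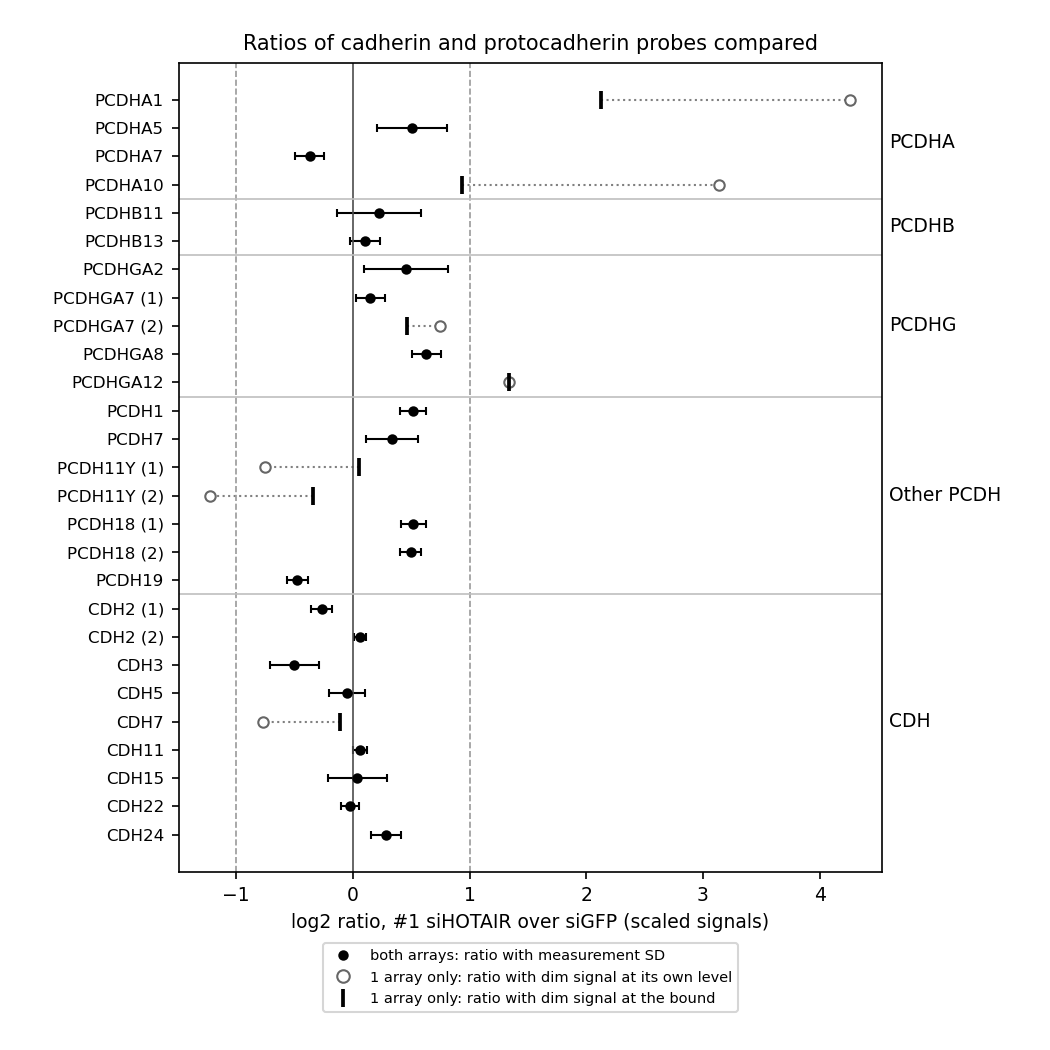
log2 ratio of #1 siHOTAIR over siGFP (x axis) for the same 27 probes; filled points with bars are probes on both arrays with the measurement SD, open points are probes on 1 array with the dim signal at its own level and vertical ticks the same at its bound, and dashed lines mark 2-fold. All points with bars lie between -0.50 and 0.63, inside the dashed lines.

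Among the cadherins the probes on both arrays were divided evenly, with 4 above and 4 below 0 and a median log2 ratio of 0.01. N-cadherin (CDH2) was detected by both of its probes. The first read 1907 with #1 siHOTAIR and 2223 with siGFP, a log2 ratio of -0.27 ± 0.09, and the second, on a pair of spots, read 9491 and 8819, a log2 ratio of 0.06 ± 0.05. The probes of CDH2 thus differed in sign. CDH11, a mesenchymal type II cadherin, read 1632 and 1658 with #1 siHOTAIR and 1515 and 1539 with siGFP, a log2 ratio of 0.06 ± 0.06. P-cadherin (CDH3), found in basal epithelium, read 67.5 and 70.5 against 92.5 and 96.7, a log2 ratio of -0.50 ± 0.21, and was the lowest of the cadherins on both arrays. Its spots with #1 siHOTAIR lay below both spots with siGFP, although its log2 ratio was -0.15 with normexp and without background correction. Both settings leave or add signal on each array and so tend to shrink the ratios of dim probes.

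Of the remaining detected cadherins, CDH7 was measured on 1 array only. CDH24, a type II cadherin, read 420 with #1 siHOTAIR and 333 with siGFP, a log2 ratio of 0.29 ± 0.13. CDH22, also type II and known from brain, read 3141 and 3094, a log2 ratio of -0.02 ± 0.08. CDH5, the cadherin of endothelial junctions, read 122 and 120 with #1 siHOTAIR and 121 and 121 with siGFP, a log2 ratio of -0.05 ± 0.16. These last 2 were within 1 measurement SD of 0. CDH15, a cadherin of muscle, read 43.6 and 77.6 against 57.3 and 52.5, with spots that overlapped between the arrays and a log2 ratio of 0.04 ± 0.25. CDH7 read 23.6 and 39.0 and was well above background only with siGFP, 1.08-fold lower with the #1 siHOTAIR signal at its bound.

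CDH1, measured by 10 spots, was at the dim level on both arrays. Its spots kept lay between 7.48 and 10.05 with #1 siHOTAIR and between 5.74 and 7.69 with siGFP. Type I cadherins had 4 of 6 probes compared, type II cadherins 5 of 13 and the remaining cadherins (CDH13, CDH16, CDH17, CDH23 and CDH26) 0 of 7. CDH1 was therefore not detectable in either condition, where CDH2 was, and the signals of different probes are not set against each other.

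Over the 20 probes on both arrays, 14 ratios lay beyond 1 measurement SD and 6 within it, where 68.0% of all 21428 probes on both arrays lay beyond it, so that the members' share was near that of all probes. Those within were the 2 PCDHB probes and 4 cadherin probes (CDH5, CDH11, CDH15 and CDH22). This SD holds no variation between cultures, so that the ratios describe these arrays.

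The study's text and supplement list 12 of these genes among those changed, a list made from these same arrays, so that its values here are not independent evidence. On 18 probes, 5 were compared, those of PCDHA1, PCDHA10, PCDHGA12 and PCDH11Y described above, and 13 were on neither array. PCDHA6 read 36.9 with #1 siHOTAIR and 7.27 with siGFP, just under the lowest spot well above background, 37.3. PCDHGC3 read 16.0 and 7.10, and a probe of PCDHGB7 read 23.2 and 8.75. PCDHGB4 read 8.78 and 30.1, CDH10 read 9.27 and 29.2, and a probe of PCDHGC4 read 7.92 and 28.4. The 3 probes of CDH23, a cadherin of hair cell tip links, read between 8.21 and 15.1 with #1 siHOTAIR and between 6.32 and 6.82 with siGFP. None of these was well above background on either array, and no fold is given.

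Catenins, the cytoplasmic partners of classical cadherins, were mostly detected. Of 10 probes for 7 genes, 8 were compared, 7 on both arrays with a median log2 ratio of 0.09. Beta-catenin (CTNNB1) read 4181 with #1 siHOTAIR and 4031 with siGFP, and alpha-catenin (CTNNA1) read 2463 and 2287. CTNNA3 was the 1 probe called lower, at 9.84 and 34.1, for which no fold can be given against the bound. Of 35 probes for 25 other genes of the cadherin superfamily, 11 were compared, with 0 higher and 1 lower. The latter was DSC3, at 8.97 and 17.9 and again with no fold against the bound. Over all probes compared, 3.3% were called higher and 4.1% lower. Both CTNNA3 and DSC3 were on 1 array only, a class in which 24.5% of all probes were called lower. CELSR1, a planar polarity cadherin, read 67499 and 55839 on its brightest probe, a log2 ratio of 0.23, and 217 and 246 on another, a log2 ratio of -0.22, so that its probes differed in sign. FAT3 read 2910 and 2454. The 10 probes on both arrays had a median log2 ratio of 0.17.

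Of 12 genes that regulate the clustered locus, all 19 probes were compared, 17 on both arrays, with a median log2 ratio of 0.09. Of the 19, 2 were called higher and 1 lower, where 3.3% and 4.1% of all 24117 probes compared were. DNMT3B, the DNA methyltransferase that methylates clustered protocadherin promoters in early development, was 3.45-fold higher with #1 siHOTAIR and was detected on both arrays. Its spots read 207 and 230 with #1 siHOTAIR and 74.8 and 50.1 with siGFP, a log2 ratio of 1.79 ± 0.19, and lay in rows 13 and 114, within the rows named above. CTCF, which loops these promoters to their enhancers, read 409 and 404 against 290 and 323, a log2 ratio of 0.36 ± 0.09. SMC1A, a cohesin subunit, had the probe called lower but disagreed between probes, with log2 ratios of -1.04, -0.39 and -0.06. SMCHD1, a chromatin repressor of the locus, was called higher on 1 of 3 probes. The called probe was detected with #1 siHOTAIR only and read 56.9 and 13.4 on a single spot in row 138. The others gave log2 ratios of 0.03 and -0.25. RAD21, another cohesin subunit, read 11551 and 10855.

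Of 16 probes for 13 genes that cut protocadherins or signal from them, all were compared. Called were 0 higher and 1 lower, against 3.3% and 4.1% of all probes compared. PTK2B, a kinase that clustered protocadherins bind, read 8.55 and 9.19 with #1 siHOTAIR and 62.7 and 60.2 with siGFP. It was detected with siGFP only and was 1.70-fold lower with the #1 siHOTAIR signal at its bound. ADAM10, the protease that sheds N-cadherin and protocadherins, disagreed between its probes, with log2 ratios of 0.77 and -0.34. The gamma-secretase subunits NCSTN and PSEN2 read 2808 and 3484, and 1938 and 2391. The CYFIP2 gene of this list had no named probe.

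The label of the cells was checked against marker genes. Of the neuroendocrine SCLC genes, NEUROD1 read 213 with #1 siHOTAIR and 372 with siGFP, while INSM1 and SYP were on neither array. CHGA was on with #1 siHOTAIR only, at 72.2 against 10.2. YAP1, which marks another SCLC class, read 6522 and 6750, and POU2F3 was on neither array. VIM read 11289 and 10119, COL1A2 read 3758 and 3741, and COL1A1 read 832 and 414, while the fibroblast genes COL3A1, DCN and PDGFRB were on neither. The epithelial keratin KRT8 read 2825 and 2557 and KRT18 431 and 565. The endothelial genes PECAM1 and VWF and the T cell gene CD3E were on neither array, so that CDH5 was read without its usual partners, while a probe of PTPRC and that of CD14 were on both. The 2 conditions thus carried the same detected classes of marker except for CHGA and some dim probes of NCAM1, EPCAM, KRT18, KRT19, KRT8 and PTPRC, seen on 1 array only.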

How the data were processed

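Total RNA of SBC-3 cells was labelled with Cy3 and hybridised to 1-colour Agilent human 8x60K arrays, 1 array per condition, both on the same slide and in the same scan. The deposited intensity values are the signals the authors extracted with Agilent Feature Extraction 10.10.1.1 (submitters' processing notes), each array processed alone; the series value table held the background-subtracted signals and served as an alternative. Processed signals of 58717 spots that were not controls were divided by the 75th percentile of each array (650.3 with #1 siHOTAIR, 629.9 with siGFP), outlier spots (393 and 375) were left out, and log2 values of the spots of a probe were averaged. No spot was saturated. The number of arrays limits the precision.

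A probe was compared if the software marked 50% or more of its spots as well above background on either array (52.1% of probes with #1 siHOTAIR and 55.3% with siGFP). Calls were made at 2-fold, the threshold of the methods, whose p-value could not be applied. The lowest spots well above background, 37.3 and 28.6, gave the bounds. The measurement SD was the median SD of repeated spots over probes printed 10 times, taken within 6 bands of signal. Names came from the accessions of the array design through RefSeq (96.8% of NM_ probes matched), with promoters from GRCh38.p14. Each compared member was named with both signals, undetected members by symbol and range, and of other lists the genes changed 2-fold and 1 or 2 of the brightest, with others chosen after their values were seen. Members and lists were chosen with earlier results of these data known. A marker gene of the lists is not reported here. Alternatives used quantile normalization, no scaling, spike-in scaling, normexp with an offset of 50 (limma 3.58.1, R 4.3.3; on median signals, since mean signals were not used here), no background correction, the value table, other filters and thresholds, the bound, and the median of spots. Python 3.11.15 and pandas 2.3.3 were used.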

Additional observations from a re-analysis of the deposited data

Results flagged for a closer look

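Single spots left out of the comparisons as outliers read well above background on the #1 siHOTAIR array for 2 genes with 10 spots each. A spot of CDH17 in row 15 read 59.3 with #1 siHOTAIR and 6.92 with siGFP, while the other 9 spots with #1 siHOTAIR lay between 8.22 and 10.3. A spot of PCDHB1 in row 82 read 44.7 and 6.17, while the other 9 lay between 7.46 and 10.2. Both spots lay in rows 1 to 144, and their signals were in the range of the single spot of PCDHA10.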

How the results depend on the processing

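No paired analysis was possible because each condition had 1 array and no test was made. The count of probes at least 2-fold higher, 3 as reported, was 1 without background correction, 0 where every spot had to be well above background on both arrays, 7 with no filter on dim probes and 5 at a threshold of 1.5-fold. The count of probes at least 2-fold lower, 1 as reported, was 0 with normexp, without background correction, with every spot well above background on both arrays, with dim signals at the bound and at a threshold of 3-fold, and it was 5 with no filter and 3 at 1.5-fold. The median log2 ratio of the probes compared, 0.15, moved to 0.34 with no filter, beside 0.16 for all 42402 probes under that setting. PCDHA1, PCDHA10, PCDHGA12 and the called probe of PCDH11Y each had a dim signal on 1 array, which the filters, the bound and the background settings treat differently, and the thresholds change the counts by construction. The other alternatives left the counts within 1.5 times and the medians within 0.157, the median measurement SD. Spike-in scaling raised the median of all probes compared from 0.01 to 0.13, and on that scale the members' median was 0.27. Of 262 ratios of single probes recomputed under the 10 settings, 225 moved by no more than 1 measurement SD, and 4 changed sign, those of CDH22, CDH5 and a probe of PCDH11Y. Ratios of PCDHA1 ranged from 1.29 to 4.38 of PCDHA10 from 0.93 to 3.26 and of PCDHGA12 from 0.53 to 1.46, while those of PCDHGA8 ranged from 0.49 to 0.75. Levels of undetected members, which were not well above background on either array, cannot be compared.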
